A study of Mus musculus with 6 samples.

Results

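Creatine kinase, adenylate kinase and AMP deaminase move and balance the energy-rich phosphate of ATP in muscle, and their mRNAs were read here in the mouse heart. The 9 genes described are Ckm, Ckmt2 and Ckb (creatine kinases), Ak1, Ak3 and Ak4 (adenylate kinases) and Ampd1, Ampd2 and Ampd3 (AMP deaminases). All probe sets that the platform annotation assigns to exactly 1 of these symbols were taken, which gave 18 of the 45037 probe sets tested and 9 of the 18193 genes. The genes were chosen by their biochemical role and by the measured fall of an Ampd2 probe set between these same groups, so the differences, standard errors and adjusted p of the members are given as a description and support nothing on their own.

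Creatine kinase passes a phosphate between ATP and creatine. Ckmt2 encodes the form that sits in the mitochondria of striated muscle and loads creatine where ATP is made, and Ckm encodes the cytosolic muscle form that regenerates ATP at the contractile filaments and ion pumps. Adenylate kinase turns a pair of ADP into ATP and AMP, and AMP deaminase removes AMP by converting it to IMP, which pulls the adenylate kinase reaction towards ATP. AMP is also the signal read by the AMP-activated protein kinase and the substrate from which adenosine is formed.

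The study measured RNA from the apex of the ventricles of mice with a human mitochondrial progesterone receptor, PR-M, as transgene. The RNA of each of 6 samples was read on an Affymetrix Mouse Genome 430 2.0 array, 3 labelled PR-M expressing and 3 labelled PR-M non-expressing. Mice of both groups had received 2.5 mg of progesterone in oil under the skin for 19 to 21 days, so both groups share the hormone and there is no group without it. The labels are silent on strain, age, the promoter of the transgene and the way expression was established. They also do not say whether each array holds a separate animal, so a p-value here reflects only how far these samples spread, which may be technical. The number of arrays, 3 in each group, limits the precision.

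Log2 values ran from 2.09 to 14.8 with array medians of 5.77 to 5.78, and arrays correlated at 0.992 to 0.997 over all probe sets. The 3 expressing arrays share 1 title prefix, non-expressing replicate 1 has another and non-expressing replicates 2 and 3 share a further one. No prefix holds both groups, so prefix and group cannot be told apart in any result below, and non-expressing replicate 1 is the array treated here as standing apart. The cardiomyocyte markers were bright in all arrays, with 10 of 10 genes above the median of every array, a summed level of 214414 to 221424 in the expressing and 215081 to 219793 in the non-expressing arrays (sum of the values on the linear scale). The 4 markers of atrial muscle had a summed level of 2430 to 9043 in the expressing arrays against 596 to 1944. Of these, Sln, Myl4 and Myl7 had log2 differences of 3.89, 3.60 and 3.45 without overlap between the groups, and Nppa overlapped, with 10.7 in non-expressing replicate 1. None of the 4 passed over genes in limma, and 3 were at an unadjusted p under 0.05. The 18S ribosomal RNA control probe sets were lower in the expressing arrays, at 8.31 ± 0.22 against 9.88 ± 0.38 (SD, n = 3 each), and for beta-actin the 3′ control probe set exceeded the 5′ one by 1.23 ± 0.05 against 1.38 ± 0.07, both without overlap (p = 0.1 in a two-sided exact permutation test, which cannot go lower with 3 against 3). For Gapdh the 3′ control probe set exceeded the 5′ one by 0.17 ± 0.06 against 0.25 ± 0.07, with overlap (p = 0.3 in the same permutation test). The part of these differences in the results below was not tested. In bulk tissue, fewer cells of a type and less RNA per cell cannot be told apart.

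Among the probe sets of these genes, 1 of 18 passed the test over all probe sets (limma, Benjamini-Hochberg adjusted p under 0.05), and it was lower in the expressing group. Over all probe sets 0.0133% passed in either direction and 0.0111% passed as lower. The called probe set is the one that led to the choice of genes, so nothing is read from this count. Of the 18, 11 had a positive and 7 a negative difference, expressing minus non-expressing, with a median of 0.07 against -0.02 over all probe sets. In 5 of the 18 the expressing and non-expressing arrays held separate ranges, 2 of them higher and 3 lower in the expressing arrays, against 18.6% of probe sets on the whole array. At an unadjusted p under 0.05 there were 4 of the 18, against 12.2% of all probe sets. The median size of the difference was 0.14 among the members and 0.10 over all probe sets.

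**Figure D1:**
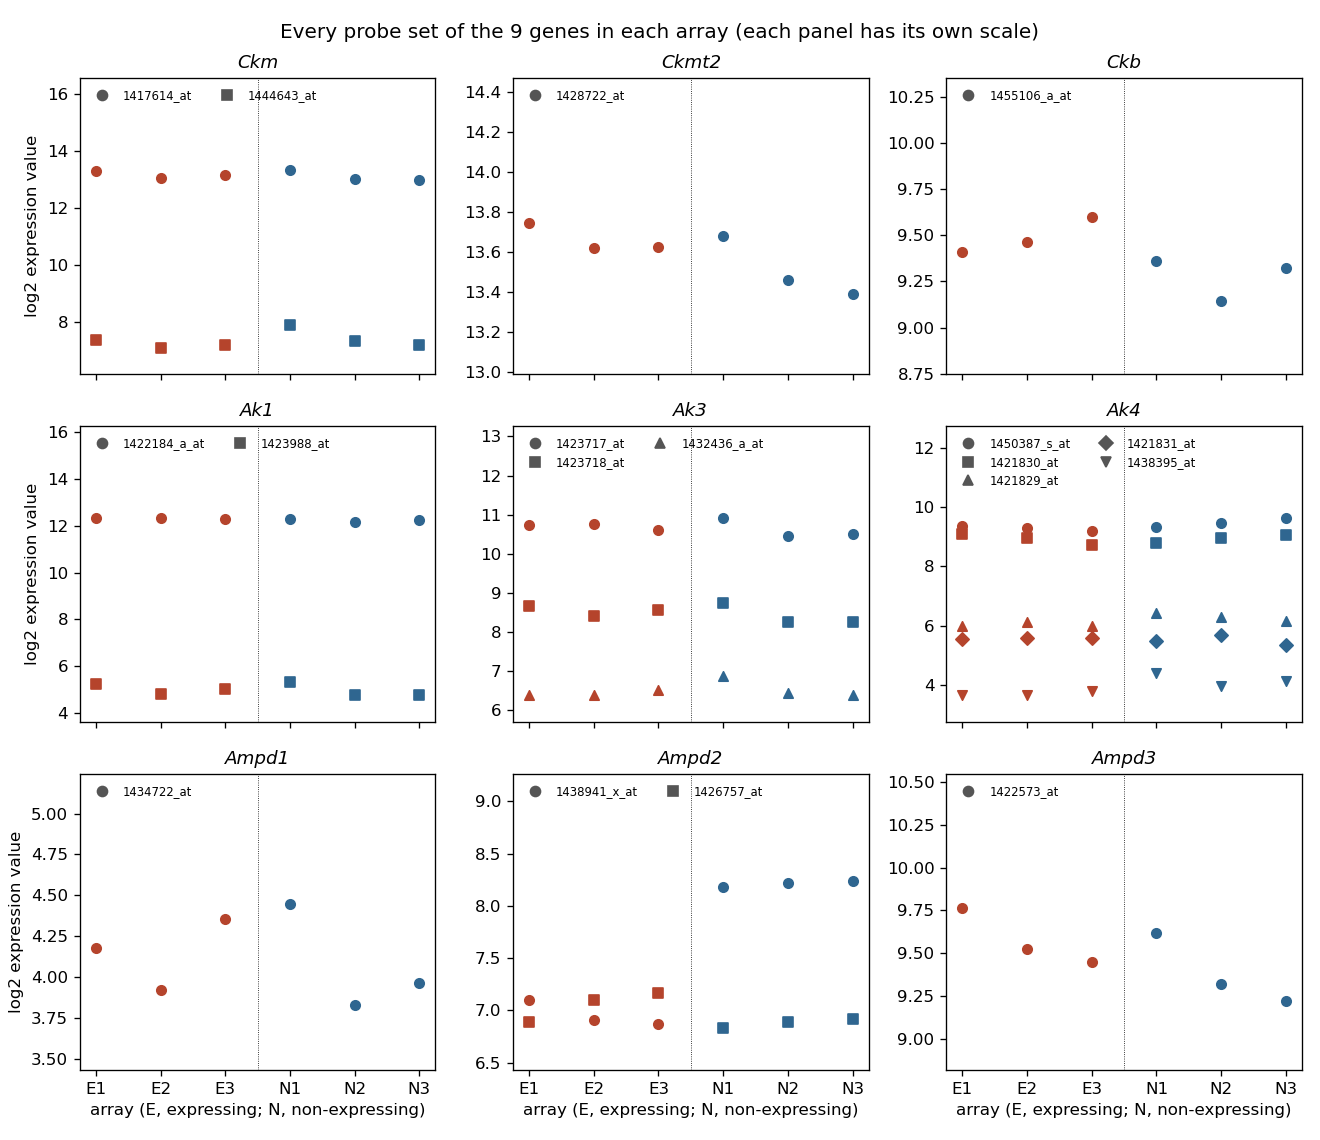
Log2 expression value (vertical axis, a separate scale in each panel) of all 18 probe sets of the 9 genes in each of the 6 arrays (horizontal axis), with 1 symbol shape per probe set, red for PR-M expressing and blue for PR-M non-expressing arrays. In the Ampd2 panel the circles (1438941_x_at) sit between 6.87 and 7.10 in the expressing and between 8.18 and 8.24 in the non-expressing arrays.

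Ampd2, which encodes the AMP deaminase first known from liver and found in many tissues, gave the called probe set and a second one that did not follow it. Because the results turn on this gene, the sequence upstream of a RefSeq start of Ampd2 is shown, beside those of Ckm, the main creatine kinase of muscle, and Ckb, the creatine kinase gene whose groups did not overlap. Each line gives the 250 bases before the start, 5′ to 3′ on the strand of the gene, from the RefSeq annotation of GRCm38.p6. Capitals mark E-boxes (CANNTG, the motif bound by muscle and other basic helix-loop-helix factors) and the TATA box letters TATAAA. The Ampd2 window is chr3:108085427-108085676 on the minus strand and lies inside the span of the gene (chr3:108074059-108086687), for which RefSeq lists 9 transcripts, 4 of them curated. The Ckm window is chr7:19410844-19411093 on the plus strand and the Ckb window chr12:111672339-111672588 on the minus strand.
Ampd2: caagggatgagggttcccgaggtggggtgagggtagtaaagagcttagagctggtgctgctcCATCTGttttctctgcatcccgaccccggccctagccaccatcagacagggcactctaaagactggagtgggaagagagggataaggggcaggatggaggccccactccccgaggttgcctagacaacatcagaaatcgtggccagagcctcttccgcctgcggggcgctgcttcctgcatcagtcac
Ckm: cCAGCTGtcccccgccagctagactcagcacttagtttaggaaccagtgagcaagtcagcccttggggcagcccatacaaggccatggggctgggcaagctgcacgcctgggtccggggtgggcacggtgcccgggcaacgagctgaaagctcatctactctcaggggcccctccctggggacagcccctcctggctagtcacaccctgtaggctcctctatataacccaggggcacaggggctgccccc
Ckb: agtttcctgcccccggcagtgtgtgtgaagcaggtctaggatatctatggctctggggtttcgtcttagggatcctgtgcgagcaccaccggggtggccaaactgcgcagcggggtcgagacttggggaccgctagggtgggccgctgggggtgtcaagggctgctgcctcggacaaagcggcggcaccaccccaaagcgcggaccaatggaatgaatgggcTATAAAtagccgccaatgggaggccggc

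The 3 windows differ in these letters. The Ampd2 window holds 1 E-box (CATCTG on the strand shown), the Ckm window holds 1 (CAGCTG, at its far end) and the Ckb window holds 0 but has a TATAAA near its start site. Windows of 8 of the 9 genes were matched by symbol, 17 windows in all, some of which overlap. Searched on both strands, an E-box was in 11 of the 17 and in 66.2% of all 32851 windows of the same length. CAGCTG, 1 form of the E-box, was in 4 of the 17 and in 13.0% of all. The letters TATAAA were in 1 of the 17 and in 12.4% of all, and the steroid receptor motif TGTTCT was in 0 of the 17 and in 16.1% of all. The estrogen-related receptor element TNAAGGTCA was in 0 of the 17 and in 1.14% of all. A match is a description of the letters and not a site shown to be bound.

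The called Ampd2 probe set, 1438941_x_at, was at 7.10, 6.91 and 6.87 in the expressing arrays and at 8.18, 8.22 and 8.24 in the non-expressing arrays. All 3 expressing arrays lay below all 3 non-expressing ones, and the gap between the groups, 1.08, was wider than the spread within either. The means were 6.96 ± 0.12 and 8.21 ± 0.03 (SD, n = 3 each), a log2 difference of -1.26 (SE 0.09), or 2.39-fold lower, with an adjusted p of 0.0103 over all probe sets (limma). It had the lowest p of all 45037 probe sets, rank 1. The ending _x_at is given by the manufacturer to probe sets with probes that can also bind transcripts of other genes. Of all tested probe sets 2441 end in _x_at, and this was the only one of them that passed.

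The second Ampd2 probe set, 1426757_at, did not pass and had a small positive difference. It was at 6.89, 7.10 and 7.16 in the expressing and at 6.83, 6.89 and 6.92 in the non-expressing arrays. The groups overlapped, since expressing replicate 1 lay below non-expressing replicate 3. The log2 difference was 0.17 (SE 0.09, 95% interval -0.04 to 0.38, limma adjusted p 0.487). The interval holds 0 and does not reach the difference of the called probe set, so the probe sets of Ampd2 disagreed in size.

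Taken as 1 value for the gene, Ampd2 therefore depended on which probe set stood for it. Represented by the probe set with the higher mean over the 6 arrays, 1438941_x_at, it passed over genes (log2 -1.26, SE 0.08, limma adjusted p 0.0066), where 4 genes (0.022%) passed, all lower. That probe set has the higher mean through the non-expressing arrays (8.21 against 6.88); in the expressing arrays 1426757_at is the brighter one (7.05 against 6.96), so the difference itself decided which probe set stood for the gene. With the mean of both probe sets the log2 difference was -0.54 (SE 0.06) and the call was lost at an adjusted p of 0.0873. When the endings _x_at and _s_at were excluded, the other probe set stood for the gene and the difference was 0.17, with an adjusted p of 0.455. The call of 1438941_x_at over all probe sets was lost without expressing replicate 3 (adjusted p 0.0824), without non-expressing replicate 2 (0.0509) and without non-expressing replicate 3 (0.0566). In each of these 3 fits 0 probe sets of the whole array passed, while the log2 difference stayed between -1.33 and -1.21 whichever array was left out. Over genes the call was lost only without non-expressing replicate 2 (adjusted p 0.0825).

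**Figure D2:**
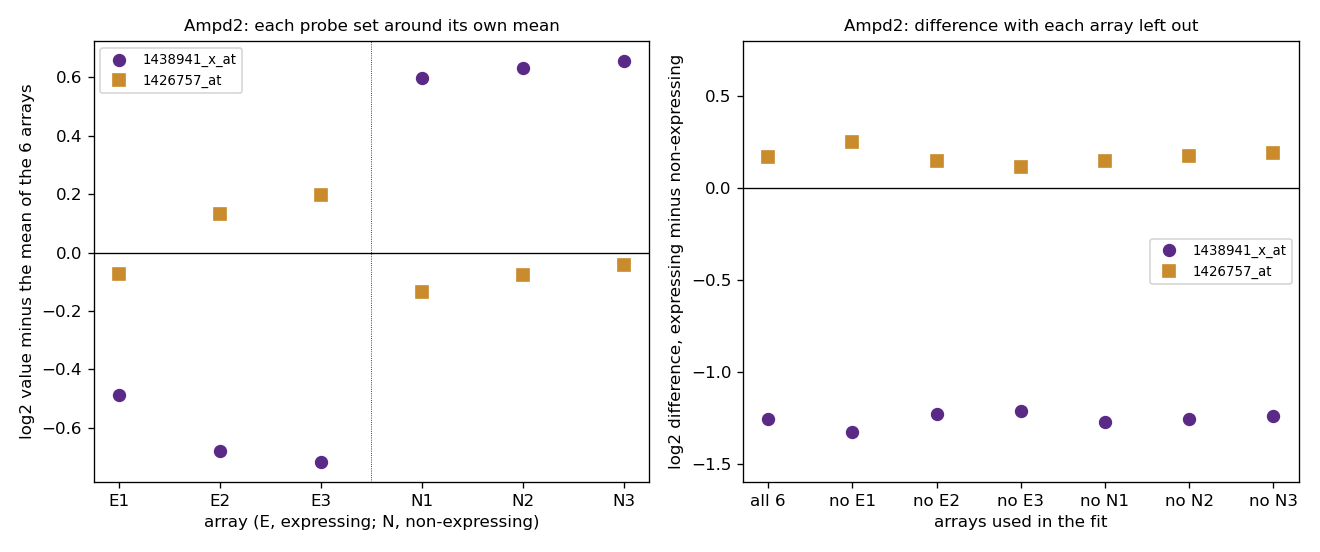
Left, log2 value of each Ampd2 probe set minus its own mean over the 6 arrays (vertical axis) in each array (horizontal axis; E, PR-M expressing; N, PR-M non-expressing); right, log2 difference, expressing minus non-expressing (vertical axis), with all 6 arrays and with each array left out (horizontal axis). The circles (1438941_x_at) lie 0.49 to 0.72 below their mean in the expressing arrays and 0.60 to 0.66 above it in the non-expressing arrays, and the squares (1426757_at) stay between -0.14 and 0.20.

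The probe sets of other genes whose values ran most like those of 1438941_x_at over the 6 arrays belonged to Med9, Commd4, Eif4g2, Dnajc24 and Fam241a. Their Pearson correlations with it were 0.998, 0.997, 0.993, 0.992 and 0.991 over 6 arrays that share 1 normalization, and are given as a description. Probe sets chosen for this likeness share its separation of the groups by construction, so their own group differences add no support. Eif4g2, a translation initiation factor gene, had a log2 difference of -0.77 (SE 0.07, limma adjusted p 0.0221 over probe sets). The others had smaller log2 differences, from -0.30 for Dnajc24 to -0.22 for Commd4, and did not pass.

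Ampd3, which encodes the AMP deaminase first known from erythrocytes and also present in the heart, did not pass. Its probe set 1422573_at was at 9.77, 9.52 and 9.45 in the expressing and at 9.62, 9.32 and 9.22 in the non-expressing arrays. Non-expressing replicate 1 lay within the expressing range and the groups overlapped. The log2 difference was 0.19 (SE 0.13, 95% interval -0.09 to 0.48, limma adjusted p 0.559). With 1 array left out it ran from 0.10 without expressing replicate 1 to 0.31 without non-expressing replicate 1. Of 12 listed erythroid markers 6 were measured, with a summed level of 733 to 776 in the expressing and 720 to 832 in the non-expressing arrays. The probe sets of Hba-a1, Hba-a2 and Epb42 lay below the median of every array. Probe sets annotated with several symbols were not used, so any shared between globin genes are not in these values. The level of globin mRNA cannot be read from them.

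Ampd1, which encodes the AMP deaminase of skeletal muscle, was dim. Its probe set 1434722_at was at 4.18, 3.92 and 4.36 in the expressing and at 4.44, 3.83 and 3.96 in the non-expressing arrays. All 6 values lay below the array medians and the groups overlapped, with a log2 difference of 0.07 (SE 0.17, 95% interval -0.32 to 0.46, limma adjusted p 0.895). At this level a change could hardly be read. All 13 skeletal muscle markers were measured, and 6 of them (Myh1, Myh4, Tnnt3, Tnnc2, Actn3 and Pvalb) also lay below the median of every array. The summed level of all 13 was 1423 to 1644 in the expressing and 1566 to 2349 in the non-expressing arrays. Casq1, the brightest, weighs most in that sum and was highest, at 10.6, in non-expressing replicate 1. Of the 13 genes 3 were higher and 10 lower in the expressing arrays, and none passed in limma. The part of the summed level in the values of Ampd1 and Ckm was not tested.

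**Figure D3:**
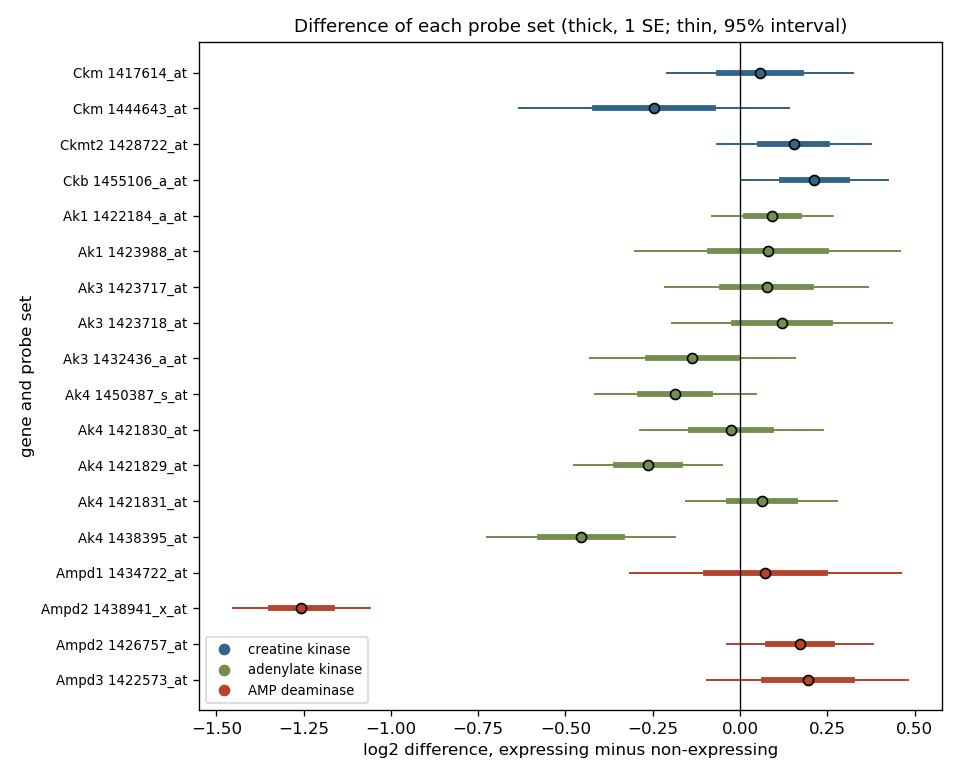
Log2 difference, PR-M expressing minus PR-M non-expressing (horizontal axis), of each of the 18 probe sets (vertical axis), with thick bars for 1 SE and thin bars for the 95% interval of the fit with 3 arrays in each group. The point of Ampd2 1438941_x_at lies at -1.26, and the other 17 lie between -0.45 and 0.21.

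None of the 4 creatine kinase probe sets passed in limma, and 1 was at an unadjusted p under 0.05. Ckm was bright on its main probe set, 1417614_at, at 13.29, 13.05 and 13.17 in the expressing and 13.35, 13.02 and 12.98 in the non-expressing arrays. Both the highest and the lowest value were in the non-expressing group, so the groups overlapped throughout. The log2 difference was 0.06 (SE 0.12, 95% interval -0.21 to 0.32, limma adjusted p 0.876). The other Ckm probe set, 1444643_at, was at 7.36, 7.11 and 7.21 in the expressing and at 7.88, 7.35 and 7.18 in the non-expressing arrays. Its log2 difference had the opposite sign, -0.25 (SE 0.17, limma adjusted p 0.583). Much of that size came with 1 array: without non-expressing replicate 1 it was -0.04, while it reached -0.39 without non-expressing replicate 3. That of 1417614_at ran from -0.01 to 0.17 with 1 array left out, highest without non-expressing replicate 1, and so changed sign.

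Ckmt2, the mitochondrial form, was at 13.74, 13.62 and 13.62 in the expressing and at 13.68, 13.46 and 13.39 in the non-expressing arrays on its single probe set, 1428722_at. Non-expressing replicate 1 lay among the expressing arrays and the other two non-expressing arrays lay below all of them. The log2 difference was 0.15 (SE 0.10, 95% interval -0.07 to 0.37, limma adjusted p 0.545). It was 0.24 without non-expressing replicate 1 and 0.09 without non-expressing replicate 3, the highest and lowest values with 1 array left out. Values of Ckmt2 and of the main Ckm probe set lay near the upper end of the scale, 14.8, and a change may be compressed there.

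Ckb encodes the brain-type cytosolic creatine kinase, which in the heart is found with the muscle form and in cells other than cardiomyocytes. Its probe set 1455106_a_at was at 9.41, 9.46 and 9.60 in the expressing and at 9.36, 9.15 and 9.32 in the non-expressing arrays. All expressing arrays lay above all non-expressing ones, by a gap of 0.04, which is less than the spread within either group. The log2 difference was 0.21 (SE 0.09, limma adjusted p 0.404), a 1.16-fold difference that did not pass. Over the whole array 8.27% of probe sets had all expressing above all non-expressing values. The 8 fibroblast markers had a summed level of 24118 to 26560 in the expressing and 20519 to 22613 in the non-expressing arrays, also without overlap, and the 8 endothelial markers had 9235 to 10768 against 8643 to 8857. The brightest endothelial marker, Cd36, weighs most in that sum. Of the 8 endothelial genes 3 were higher without overlap and 5 overlapped. These 5 were Vwf, Cdh5, Tek, Kdr and Tie1, with differences of 0.73, 0.05, 0.01, -0.11 and -0.07. All 8 fibroblast genes were higher, 5 without overlap and 3 with it, and Dcn, the brightest, weighs most in their sum. None of either list passed in limma. The 5 smooth muscle markers overlapped, at 5090 to 6088 against 4694 to 6517. Des, the brightest of them, weighs most in that sum and differed by -0.13. It was the 1 lower gene of this list, and the other 4 were higher, from 0.08 for Myh11 to 0.56 for Tagln. Of 10 listed markers of neurons or Schwann cells 8 were measured, at 1163 to 1292 against 1135 to 1223, and Nefl, Nefm and Tubb3 lay below the median of every array. Of the 8 measured, 5 were higher and 3 lower, with -0.06 for Nefl, -0.38 for Nefm and -0.29 for Tubb3. The myelin gene Mbp was higher without overlap, with a log2 difference of 0.88 (SE 0.14, limma adjusted p 0.127). Pmp22, the brightest of the 8, differed by 0.01. The part of these cell types in the Ckb values was not tested.

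None of the 10 adenylate kinase probe sets passed in limma, 2 were at an unadjusted p under 0.05, and 5 had a positive and 5 a negative difference. Ak1 encodes the cytosolic adenylate kinase of muscle. Its bright probe set, 1422184_a_at, was at 12.32, 12.35 and 12.31 in the expressing and at 12.28, 12.15 and 12.27 in the non-expressing arrays. The expressing arrays lay above the others by a gap of 0.03, and the log2 difference was 0.09 (SE 0.08, 95% interval -0.08 to 0.27, limma adjusted p 0.653). The second Ak1 probe set, 1423988_at, was at 5.22, 4.80 and 5.01 in the expressing and at 5.29, 4.74 and 4.76 in the non-expressing arrays. It lay below the array medians in all 6 arrays, the groups overlapped, and the log2 difference was 0.08 (SE 0.17, limma adjusted p 0.880).

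Ak3 encodes the adenylate kinase of the mitochondrial matrix that uses GTP, and its 3 probe sets did not share a sign. Probe set 1423717_at was at 10.74, 10.77 and 10.61 in the expressing and at 10.92, 10.45 and 10.51 in the non-expressing arrays. Probe set 1423718_at was at 8.66, 8.42 and 8.56 in the expressing and at 8.74, 8.26 and 8.27 in the non-expressing arrays. In both, non-expressing replicate 1 was the highest and replicates 2 and 3 the lowest of all arrays. Their log2 differences were 0.08 (SE 0.13) and 0.12 (SE 0.14), and with 1 array left out they ran from -0.01 to 0.22 and from 0.04 to 0.28, highest without non-expressing replicate 1. Probe set 1432436_a_at was at 6.38, 6.40 and 6.52 in the expressing and at 6.87, 6.44 and 6.40 in the non-expressing arrays. Its log2 difference was -0.14 (SE 0.13), and it ran from -0.22 without non-expressing replicate 3 to 0.01 without non-expressing replicate 1. The adjusted p of the 3 probe sets lay between 0.702 and 0.841 (limma).

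Ak4 encodes a further mitochondrial matrix protein of the family, known to respond to low oxygen, and 4 of its 5 probe sets had negative differences. The brightest, 1450387_s_at, was at 9.38, 9.29 and 9.20 in the expressing and at 9.33, 9.45 and 9.65 in the non-expressing arrays. Expressing replicate 1 lay above non-expressing replicate 1, so the groups overlapped, with a log2 difference of -0.19 (SE 0.10, 95% interval -0.42 to 0.04, limma adjusted p 0.492). The next, 1421830_at, was at 9.09, 8.97 and 8.72 in the expressing and at 8.81, 8.98 and 9.07 in the non-expressing arrays, and its difference of -0.03 (SE 0.11) had no clear sign.

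In a pair of Ak4 probe sets all expressing arrays lay below all non-expressing ones. Probe set 1421829_at was at 5.99, 6.10 and 5.97 in the expressing and at 6.41, 6.30 and 6.14 in the non-expressing arrays, a log2 difference of -0.26 (SE 0.09, limma adjusted p 0.323). Probe set 1438395_at was at 3.65, 3.63 and 3.80 in the expressing and at 4.38, 3.94 and 4.12 in the non-expressing arrays, a log2 difference of -0.45 (SE 0.12, limma adjusted p 0.226). Neither passed, and the second lay below the array medians throughout. Over the whole array 10.3% of probe sets had all expressing below all non-expressing values. The fifth Ak4 probe set, 1421831_at, was at 5.56, 5.56 and 5.58 in the expressing and at 5.48, 5.67 and 5.35 in the non-expressing arrays. It also lay below the array medians, and its log2 difference was 0.06 (SE 0.09, limma adjusted p 0.824). The probe sets of Ak4 therefore ran from -0.45 to 0.06, and the mean of all 5 differed by -0.17 (SE 0.06, limma adjusted p 0.316 over genes).

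Across the members, non-expressing replicate 1 was often the highest of its group. It was so in 13 of the 18 probe sets, among them all 4 of the creatine kinases, 7 of the 10 of the adenylate kinases and 2 of the 4 of the AMP deaminases, and in 38.6% of all probe sets. Probe sets of 1 gene share their target, so the 18 are not independent. Without this array 12 of the 18 differences were positive and 6 negative, with a median of 0.13 in place of 0.07. The median over all probe sets was -0.02 with and without it. The difference of Ampd2 1438941_x_at was -1.27 without it.

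The wider pathway was read from 7 lists with 68 measured genes, 1 probe set per gene, and 0 of the 68 passed over all genes in either direction (limma). At an unadjusted p under 0.05 there were 13, 8 higher and 5 lower, against 12.6% of all genes. Of these genes 37 were higher and 31 lower in the expressing arrays, with a median of 0.01 against -0.02 over all genes. In the list of creatine synthesis and transport, 2 of 4 genes were higher. Gatm, the first enzyme of creatine synthesis, averaged 5.82 ± 0.13 in the expressing against 5.37 ± 0.18 in the non-expressing arrays (SD, n = 3 each; log2 difference 0.45, limma adjusted p 0.226). Gamt, the second enzyme, differed by -0.41 (adjusted p 0.346). Slc6a8, the creatine transporter, and Ckmt1, the mitochondrial creatine kinase of other tissues, were named after their values were seen. Slc6a8 was at 10.7 ± 0.12 and 10.9 ± 0.08, with the expressing arrays lower and no overlap (log2 difference -0.20, limma adjusted p 0.391), and Ckmt1 differed by 0.01.

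Most genes that serve the export of ATP from the mitochondrion had positive differences. In this list 9 of 10 genes were higher in the expressing arrays, with a median of 0.15, where 44.0% of all genes were higher. Bright probe sets leaned less to the lower side. Of those above the median of every array, 10510 were higher and 10401 lower. None of the 10 genes passed in limma, and 4 of them were at an unadjusted p under 0.05, all higher, against the 12.6% of all genes in either direction. Slc25a3, the mitochondrial phosphate carrier, was at 13.7 ± 0.05 and 13.5 ± 0.02 (SD, n = 3 each; log2 difference 0.23, limma adjusted p 0.283). Vdac2, a channel of the outer membrane, was at 12.8 ± 0.09 and 12.5 ± 0.09 (log2 difference 0.27, limma adjusted p 0.290). Further genes of the list were named after their values were seen. Slc25a5 and Vdac3 differed by 0.26 and 0.21 without overlap between the groups (limma adjusted p 0.335 and 0.345). Slc25a23 and Slc25a25 differed by 0.12 and 0.08, with overlap. Slc25a4, the brightest at 14.5 in both groups, and Vdac1 each differed by 0.02, and Slc25a24 by -0.0003. Slc25a4 lay near the upper end of the scale, 14.8, where a change may be compressed. Slc25a31 differed by 0.17 and lay below the median of every array. Without non-expressing replicate 1 again 9 of 10 were higher, with a median of 0.13.

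**Figure D4:**
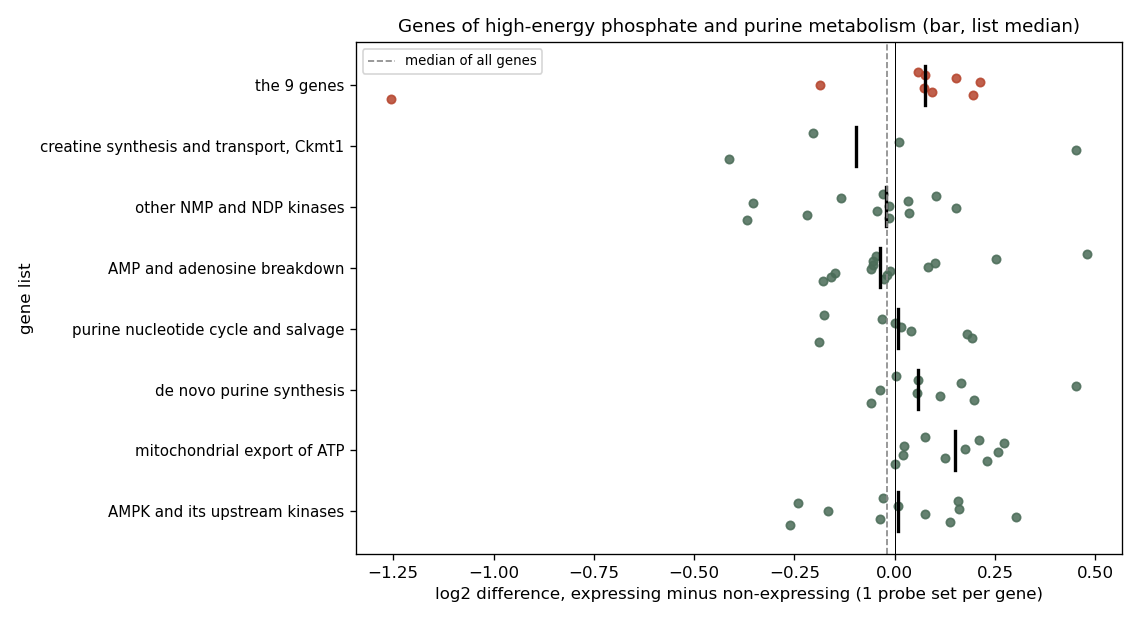
Log2 difference, PR-M expressing minus PR-M non-expressing (horizontal axis), of each gene, 1 probe set per gene, in the 9 genes (red) and in 7 lists of the wider pathway (green); bars mark list medians and the dashed line the median of all genes, -0.02. Apart from Ampd2 at -1.26, the genes shown lie between -0.41 and 0.48.

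The other lists had medians from -0.04 to 0.06, against -0.02 for all genes, and none of their members passed. Among 12 measured nucleoside mono- and diphosphate kinases 4 were higher and 8 lower (median -0.02). Guk1, the guanylate kinase gene, was at 10.2 ± 0.13 and 10.5 ± 0.09 (SD, n = 3 each; log2 difference -0.35, limma adjusted p 0.241), and Nme4, a mitochondrial nucleoside diphosphate kinase gene, differed by -0.37 (adjusted p 0.365). Among 14 genes of AMP and adenosine breakdown 4 were higher and 10 lower (median -0.04). Nt5e, the cell surface enzyme CD73 that forms adenosine from AMP, was at 7.67 ± 0.13 and 7.19 ± 0.06 without overlap, and its log2 difference of 0.48 had the lowest adjusted p of the 68 genes, 0.144 (limma). Uox, the urate oxidase gene, was dim and differed by 0.25 (adjusted p 0.455).

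In the purine nucleotide cycle and salvage list, which holds the enzymes that return IMP to AMP, 5 of 8 genes were higher (median 0.01). Slc29a1, a nucleoside transporter gene, differed by 0.18 (limma adjusted p 0.457) and Aprt, adenine phosphoribosyltransferase, by -0.19 (adjusted p 0.475). Of 9 genes of de novo purine synthesis 7 were higher (median 0.06), where 44.0% of all genes were higher. Among probe sets above the median of every array, 10510 were higher and 10401 lower. Without non-expressing replicate 1, 6 of the 9 genes were higher and 3 lower. Ppat, its first committed enzyme, differed by 0.20 (limma adjusted p 0.391). Prps2, a phosphoribosyl pyrophosphate synthetase gene, differed by 0.45 (limma adjusted p 0.552) and the groups overlapped. Its non-expressing replicate 1 was at 9.58, and replicates 2 and 3 were at 8.50 and 8.39. Of 11 genes of the AMP-activated protein kinase and its upstream kinases 6 were higher and 5 lower (median 0.01). Stk11, the upstream kinase LKB1, differed by 0.30 (limma adjusted p 0.255) and Strada, its partner, by -0.24 (adjusted p 0.300), both without overlap between the groups.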

How the data were processed

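The authors deposited a log2 expression value for each probe set of each array. RMA and Partek 6.6 appear in the submitters' processing notes without role or order; other settings were not stated. The scale was inferred from the range of the values. Once sorted, the arrays differed by at most 0.155, as quantile normalization leaves them, so a difference is relative to the other genes. Of 45101 rows 64 control probe sets were left out of the tests. The platform annotation gives 1 symbol to 34945 probe sets, several to 932 and none to 9160. Gene identifiers of 34741 matched RefSeq (GRCm38.p6), and 0 symbols changed.

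Groups were compared with limma 3.58.1 in R 4.3.3 (lmFit, eBayes, two-sided, Benjamini-Hochberg threshold 0.05), over 45037 probe sets and, in a separate fit, over 18193 genes represented by the probe set with the highest mean. Named from each list were the genes past the threshold, at most 4, or the 2 with the lowest p. The text also names the 5 probe sets most like the called one. The members and lists were chosen with earlier results of these data known. Replicates were numbered in record order.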

Additional observations from a re-analysis of the deposited data

How the results depend on the processing

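With 3 arrays in each group only large differences could pass, and several members lay near background or near the top of the scale. The count of called member probe sets, 1, was the same with a filter on dim probe sets, with cyclic loess, quantile or median scaling, with an intensity trend and robust prior, with array weights and with a random block for title prefix (statmod 1.5.0). It was also 1 at a threshold of 0.10, which can add calls but cannot remove one. Each title prefix lies within 1 group, so the random block cannot separate a prefix effect from the group difference. The count was 0 when the endings _x_at and _s_at were excluded, since these include the called one, and 0 to 1 with each array left out. The adjusted p of 1438941_x_at ranged from 0.00118 to 0.0824 over these fits. The count of called member genes, 1, was the same with the random block. It was 0 when the probe sets of a gene were averaged, 0 without _x_at and _s_at probe sets, where the difference of Ampd2 was 0.17, and 0 to 1 with each array left out. With the p of the fit over probe sets adjusted over genes, an alternative chosen after seeing the data, 12 genes passed over the whole array in place of 4, with Ampd2 the only member. Of 264 differences of members under the alternatives, 261 moved by less than 1 SD between replicates. Some could not move, since the dim filter, the trend and robust prior and the excluded endings leave the difference of a kept probe set unchanged. The yardstick is also wide, with a median SD of 0.16 among the member probe sets against a median size of 0.14 for their differences. The differences of several members changed sign with 1 array left out. The scalings moved the median of all probe sets by at most 0.02. No paired analysis was possible because the labels give the samples no replicate numbers that the groups share.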
